A study of Mus musculus with 6 samples.

Results

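The endothelial and angiogenic genes described here are 43 genes that mark blood vessel endothelium or carry its growth signals. They were chosen by gene symbol, as every probe set of the array annotated to a single one of these symbols. This gave 82 probe sets for all 43 genes, of 45037 probe sets without controls and 18193 genes in all. The cells came from ovaries of 129S6/SvEvTac females at 2 months of age that carried Gli1-CreERT2, a tamoxifen-inducible Cre recombinase under the control of Gli1, and Rosa-LSL-tdTomato, a red reporter that Cre switches on for good. In the mesonephros-derived group (3 arrays) tamoxifen was given on E12.5, E14.5 and E16.5, embryonic days before birth. In the ovary-derived group (3 arrays) it was given by way of a lactating dam from postnatal day 1 to day 3. Both groups carried both alleles and received tamoxifen, and cells of the adult ovary were sorted by flow cytometry on tdTomato. The profiled cells are named as theca cells of either origin, and the sorted fraction they came from is not named in the labels. The label records which cells expressed Gli1, a target of hedgehog signalling, when tamoxifen was present, and not their type in the adult. Tissue of origin and time of tamoxifen changed together, so they cannot be told apart.

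Endothelial cells line all vessels and are held together by junction proteins such as VE-cadherin and PECAM-1. They receive VEGF through the receptors Flt1, Kdr and Flt4 and angiopoietins through Tek, and transcription factors of the ETS and SOX families keep their identity. In the ovary, capillaries grow into the theca layer that wraps each follicle and stop at the basement membrane of the granulosa layer, so theca and endothelial cells lie side by side. Many of the ligands, among them Vegfa, Vegfc and Angpt1, are made by the stromal cells around vessels.

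RNA was read as probe set signal intensity on 1-colour arrays, and the deposited signals had the same trimmed mean, 500, on every array. Over all probe sets, pairs of mesonephros-derived arrays had correlations of 0.844 to 0.896, and pairs of ovary-derived arrays 0.963 to 0.973. Pairs across the groups had 0.871 to 0.95, so the closest of them exceeded every pair of mesonephros-derived arrays. Poly-A spike transcripts, bacterial RNAs usually added ahead of amplification, read 14.96, 14.15 and 2.43 times the ovary-derived mean on mesonephros-derived arrays 1, 2 and 3, against 0.683, 0.832 and 1.76 times on the ovary-derived arrays. Mesonephros-derived arrays 1 and 2 therefore stood apart from the other 4. Each gene is given by its brightest probe set, on the scale log2(signal + 16), and a gene was tested if the mean of that probe set reached a signal of 99.4, the 40th percentile of such means, called the floor here.

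Of the 43 genes 37 were tested, and 0 passed an adjusted p of 0.05 in limma between mesonephros-derived and ovary-derived cells (0.0427% of 11703 genes tested did). The smallest adjusted p was 0.0865, for Aplnr, the apelin receptor, with a log2 change of −1.99. At an unadjusted p of 0.05, 6 of the 37 had lower signal in mesonephros-derived cells, against 7.22% of all genes tested, and 0 had higher signal, against 6.46%. These 6 were Aplnr, Sox18, Robo4, Kdr, Fli1 and Pecam1. The log2 change was below 0 for 25 of the 37, where 56.5% of all genes lay below 0, and the median was −0.37 against −0.08 over all genes. The arrays of the groups did not overlap for 7 members, all lower in mesonephros-derived cells, which is 18.9% of the 37 where 12.6% of all genes tested did so, and 0 were higher without overlap, where 9.56% of all genes were. These counts describe the members that passed the floor. With no floor, 31 of the 43 lay below 0. The number at an unadjusted p of 0.05 depended on which arrays entered. Leaving out mesonephros-derived replicate 1 gave 6, where 10.3% of all genes were lower at that p, and leaving out replicate 2 gave 15, where 9.09% were. Leaving out ovary-derived replicate 1 or 2 gave 4 each, where 2.4% and 2.88% of all genes were. Adding the spike signal to the model gave 0, where 1.13% of all genes were lower at that p.

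**Figure D1:**
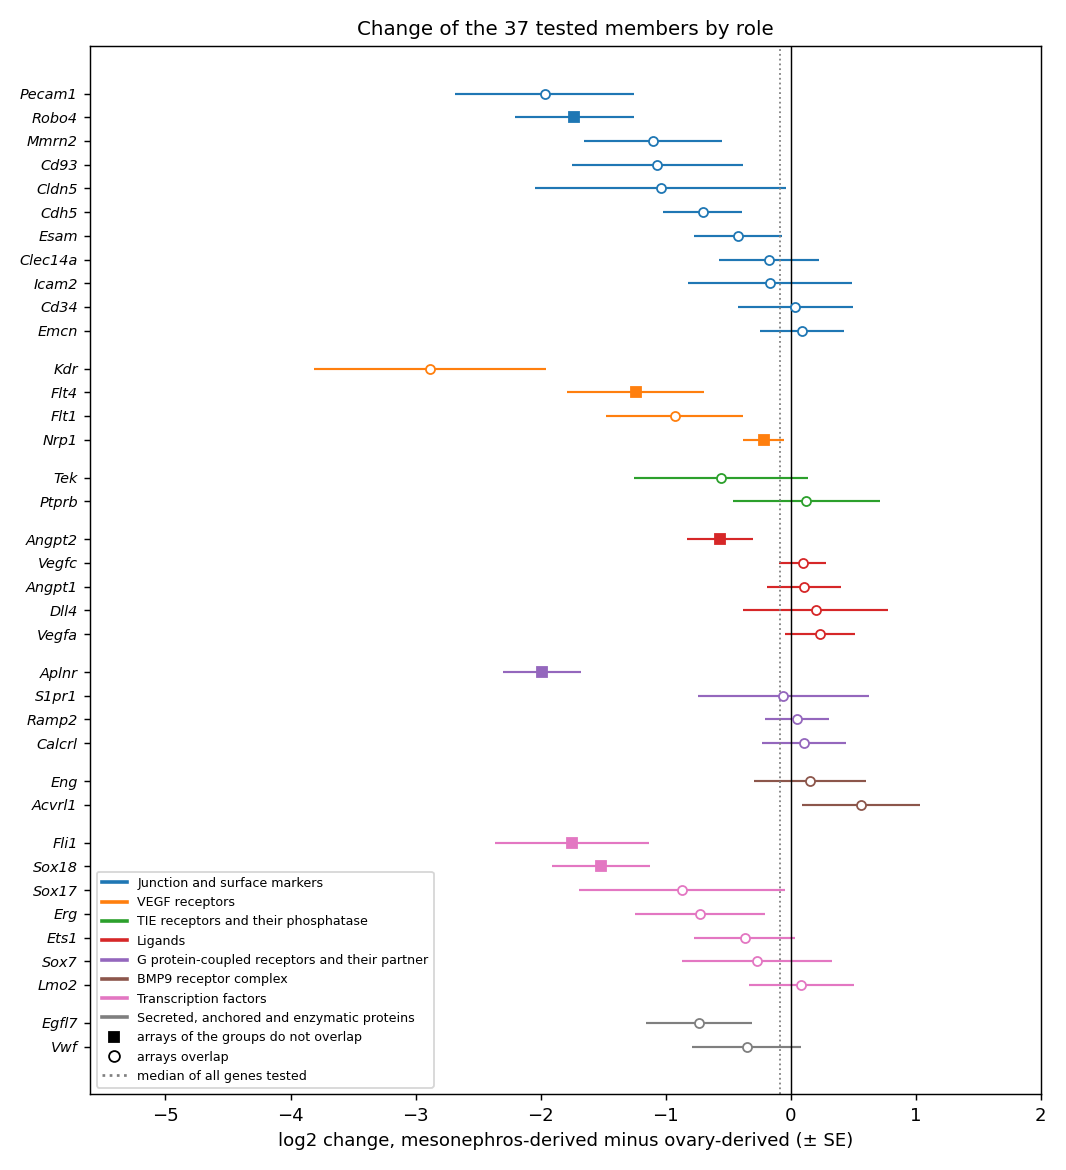
Log2 change (mesonephros-derived minus ovary-derived, x axis, bars ± SE) of the 37 tested genes, grouped and coloured by role, with filled squares where the arrays of the groups do not overlap and a dotted line at the median of all genes tested, −0.08. Most junction and surface markers, VEGF receptors and transcription factors lie left of 0, while the ligands other than Angpt2 lie near it.

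Aplnr, a G protein-coupled receptor of endothelial cells that are forming new vessels, had signals of 918, 875 and 1112 on the 3 mesonephros-derived arrays, against 5925, 3991 and 2455 on the ovary-derived arrays. All 3 mesonephros-derived arrays lay below all 3 ovary-derived ones. The log2 change was −1.99 ± 0.31 (SE, limma adjusted p = 0.0865), 3.97-fold higher in ovary-derived cells on the log2(signal + 16) scale. Another probe set of the same gene read 167, 465 and 244 in mesonephros-derived cells, against 2002, 1609 and 825 in ovary-derived cells, a log2 change of −2.30, again without overlap. Leaving out 1 array at a time gave −2.32 to −1.68. With arrays weighted by their estimated noise, Aplnr passed (limma adjusted p = 0.00893), as did Sox18 (0.0303) and Kdr (0.0284), where 42 of all genes tested were lower and 87 higher at an adjusted p of 0.05.

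The ligand of that receptor, apelin, lay under the floor on average. Apln read 106, 60.9 and 52.9 in mesonephros-derived cells and 122, 104 and 48.4 in ovary-derived cells, with overlap, and was not tested. The other 3 genes of the receptor group stood near 0. Calcrl and Ramp2, which together form the adrenomedullin receptor, stood at 0.10 ± 0.34 and 0.05 ± 0.26 log2 units (SE). S1pr1, the receptor for sphingosine 1-phosphate in blood, stood at −0.06 ± 0.68, and all 3 overlapped between the groups. A second probe set of Calcrl read 4.68, 2265 and 259 across the mesonephros-derived arrays, against 125 to 147 on the ovary-derived arrays.

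**Figure D2:**
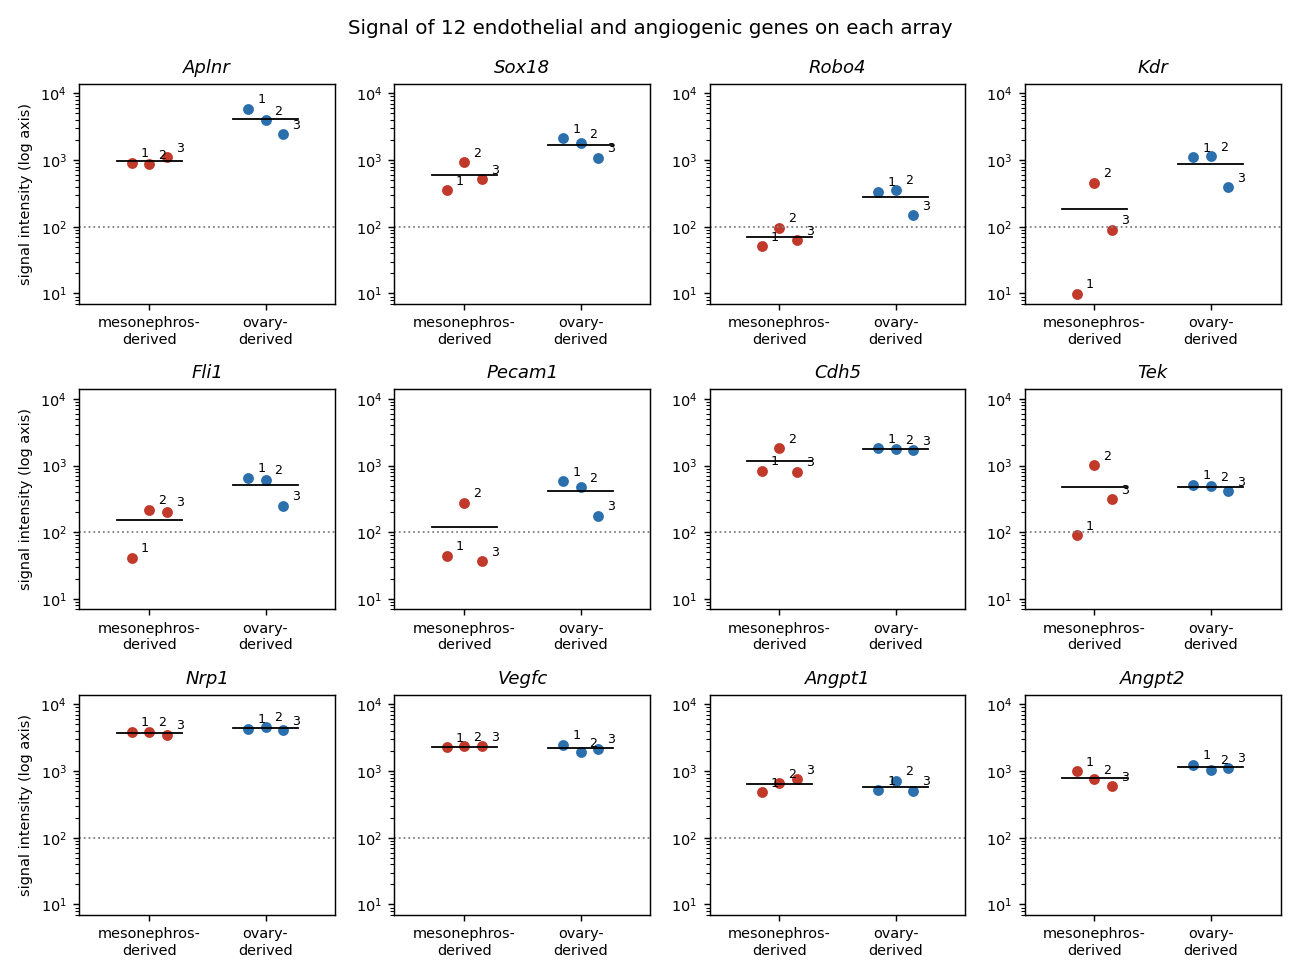
Signal intensity (log axis) of 12 genes on each array, with the replicate number beside each point, a black line at each group's mean and a dotted line at the floor, 99.4. Aplnr, Sox18, Robo4, Fli1, Nrp1 and Angpt2 do not overlap between the groups. Kdr and Pecam1 overlap through mesonephros-derived replicate 2 and ovary-derived replicate 3, and Vegfc and Angpt1 lie at like levels.

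Transcription factors of the endothelium stood below 0 for 6 of the 7 tested. Sox18, a SOX factor of forming blood and lymph vessels, read 350.3, 922 and 522 in mesonephros-derived cells, against 2139.95, 1798 and 1089.5 in ovary-derived cells. The groups did not overlap, and the log2 change was −1.52 ± 0.39 (SE, limma unadjusted p = 0.00368, adjusted p = 0.229). Sox17 and Sox7, the other members of its family, overlapped between the groups at −0.87 ± 0.82 and −0.27 ± 0.60. Sox17 varied widely within mesonephros-derived cells, at 50.4, 845 and 207, against 667, 430.02 and 240.1 in ovary-derived cells, and its log2 change was 0.04 without mesonephros-derived replicate 1.

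Fli1, an ETS factor of endothelial and blood cells, read 41.8, 219 and 204 in mesonephros-derived cells, against 660.3, 614 and 251 in ovary-derived cells. The groups did not overlap (log2 change −1.75 ± 0.62 SE, limma unadjusted p = 0.0196, adjusted p = 0.302), but a second probe set of Fli1 stood at −0.20 and overlapped. The log2 change of Fli1 was −1.09 without mesonephros-derived replicate 1 and −0.26 with the spike signal in the model. Erg, an ETS factor of endothelium, stood at −0.72 ± 0.52, with another probe set at −1.20. Ets1, found in endothelium and in other cells, read 895, 3069 and 1615 in mesonephros-derived cells, against 2708, 2066 and 1720.2 in ovary-derived cells. Its highest value was on a mesonephros-derived array, and its log2 change was −0.37 ± 0.40 (SE), or 0.07 without mesonephros-derived replicate 1. Its 3 other probe sets stood at −1.05, −0.64 and −1.72, the last without overlap. Lmo2, a transcription adaptor shared with blood progenitors, stood at 0.09 ± 0.42, and its partner Tal1 was below the floor and not tested.

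Among the 12 junction and surface markers 11 were tested, and 9 of these lay below 0. Pecam1, the adhesion molecule at endothelial borders, read 44.4, 278 and 36.9 in mesonephros-derived cells, against 579.6, 473 and 178 in ovary-derived cells. Mesonephros-derived replicate 2 lay above ovary-derived replicate 3, so the groups overlapped (log2 change −1.97 ± 0.72 SE, limma unadjusted p = 0.0229, adjusted p = 0.312). Robo4, a receptor that stabilises vessels, read 51.3, 96.6 and 63.4 in mesonephros-derived cells, all below the floor, against 337, 359 and 149 in ovary-derived cells. Its fold is a bound, at least 2.42-fold lower in mesonephros-derived cells (limma unadjusted p = 0.00539, adjusted p = 0.246).

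Cdh5, the gene of VE-cadherin, read 838, 1809.99 and 811 in mesonephros-derived cells, against 1826, 1743 and 1708 in ovary-derived cells. The mesonephros-derived replicate 2 reached the ovary-derived level and the other 2 arrays did not (log2 change −0.70 ± 0.32 SE, limma unadjusted p = 0.0526). A second Cdh5 probe set read 657, 868 and 615 in mesonephros-derived cells, against 1784, 1085 and 1505 in ovary-derived cells, without overlap. Cldn5, the claudin of endothelial tight junctions, read 20.97, 1094 and 272 in mesonephros-derived cells, against 565, 452 and 362 in ovary-derived cells, a log2 change of −1.04 ± 1.01 (SE), or 0.27 without mesonephros-derived replicate 1. Cd93, a surface lectin, stood at −1.07 ± 0.68 with overlap, or −0.14 without mesonephros-derived replicate 1, and its other probe sets past the floor at −0.34, −0.68 and −0.61. Mmrn2, the matrix protein that Cd93 binds, stood at −1.10 ± 0.55 with overlap, or −0.52 without that array. Its other probe sets past the floor stood at −1.76, without overlap, and 0.02. Esam, Clec14a and Icam2, adhesion and lectin proteins of the endothelial surface, stood at −0.42, −0.17 and −0.16 with overlap.

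Emcn and Cd34, sialomucins of capillaries, overlapped between the groups with log2 changes near 0. Emcn read 1973, 859 and 1868 in mesonephros-derived cells, against 1575, 1528 and 1094 in ovary-derived cells (0.09 ± 0.34 SE). Cd34, which also marks stromal progenitors, read 1944, 1010.4 and 2160.3 in mesonephros-derived cells, against 2872, 1701 and 800.4 in ovary-derived cells (0.04 ± 0.46 SE). In both genes mesonephros-derived replicate 2 was the lowest of its group, the reverse of its place in Cdh5, Cldn5 and Pecam1. Plvap, the diaphragm protein of fenestrated capillaries, was at or below a signal of 86.8 on all 6 arrays and was not tested.

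All 4 VEGF receptors lay below 0. Kdr, the main signalling receptor for VEGF, read 9.91, 459.8 and 90.3 in mesonephros-derived cells, against 1106, 1139 and 394 in ovary-derived cells. Mesonephros-derived replicates 1 and 3 were under the floor, and replicate 2 lay above the lowest ovary-derived array (log2 change −2.89 ± 0.93 SE, limma unadjusted p = 0.0125, adjusted p = 0.280). Without mesonephros-derived replicate 1 the log2 change was −1.85, and without replicate 2 it was −3.95. Flt1, a receptor that binds VEGF tightly and limits it, read 244, 489.8 and 104 in mesonephros-derived cells, against 596, 585 and 279 in ovary-derived cells (−0.93 ± 0.55 SE). It was −0.40 without mesonephros-derived replicate 3 and −1.43 without replicate 2. Its 3 other probe sets stood at −1.05, −0.55 and −2.59, the last 2 with means under the floor. The last read 8.15, 13.9 and 69.4 in mesonephros-derived cells, against 249, 196 and 222 in ovary-derived cells, without overlap.

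Flt4, the VEGF-C receptor of lymphatic and sprouting endothelium, read 44.6, 167 and 217 in mesonephros-derived cells, against 407, 314 and 229 in ovary-derived cells, without overlap (−1.24 ± 0.55 SE, limma adjusted p = 0.365), with a log2 change of −0.65 without mesonephros-derived replicate 1. Nrp1, a co-receptor for VEGF and semaphorins that many stromal cells also express, read 3865, 3893 and 3503 in mesonephros-derived cells, against 4344, 4615 and 4129 in ovary-derived cells. The groups did not overlap, yet the log2 change was −0.22 ± 0.16 (SE, limma adjusted p = 0.574), and its other probe sets stood at −0.45, −0.36 and 0.02.

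In the TIE and BMP9 receptor groups, Tek, Ptprb and Eng were highest of the 6 arrays on mesonephros-derived replicate 2. Tek, the angiopoietin receptor, read 90.9, 1010.3 and 311 in mesonephros-derived cells, against 516, 488 and 409 in ovary-derived cells. The highest and the lowest of the 6 values were both mesonephros-derived, and the log2 change was −0.56 ± 0.69 (SE), or 0.26 without mesonephros-derived replicate 1. Ptprb, the phosphatase that restrains Tek, read 357, 2210.5 and 634 in mesonephros-derived cells, against 932, 839 and 499 in ovary-derived cells (0.12 ± 0.59 SE). Tie1, which modulates Tek, read 21.6, 83.3 and 28.8 in mesonephros-derived cells, against 123, 211 and 88.8 in ovary-derived cells, and was not tested because its mean lay under the floor. Eng, the co-receptor for BMP9, read 616, 2645 and 1395 in mesonephros-derived cells, against 1252, 1165 and 1123 in ovary-derived cells (0.16 ± 0.45 SE). Acvrl1, the receptor that signals with it, stood at 0.56 ± 0.47, with another probe set at −1.95.

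The ligands stood near 0, except Angpt2. Vegfa, the growth factor that drives vessel growth, read 967, 864 and 575 in mesonephros-derived cells, against 686, 714 and 592 in ovary-derived cells (0.24 ± 0.28 SE). Another Vegfa probe set stood at −0.63 and the mean of its probe sets at −0.20, so its direction depended on the probe set. Vegfc, the ligand of Flt4, read 2259, 2355 and 2373 in mesonephros-derived cells, against 2471, 1917 and 2175 in ovary-derived cells (0.10 ± 0.19 SE). Angpt1, the stabilising ligand of Tek, read 479.9, 657 and 756 in mesonephros-derived cells, against 519.95, 714 and 509 in ovary-derived cells (0.11 ± 0.29 SE). All 3 overlapped between the groups.

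Angpt2, the angiopoietin that loosens vessels and is released by endothelium, read 1004, 755 and 589 in mesonephros-derived cells, against 1252, 1048 and 1125 in ovary-derived cells. The groups did not overlap, and the log2 change was −0.56 ± 0.26 (SE, limma unadjusted p = 0.0606, adjusted p = 0.383). A second Angpt2 probe set stood at −0.455 and overlapped. Dll4, the Notch ligand of sprouting tips, read 71.3, 304 and 69.6 in mesonephros-derived cells, against 119, 88.4 and 96.0 in ovary-derived cells, at 0.20 ± 0.58 (SE). Mesonephros-derived replicate 2 was the highest of the 6 arrays and the other 2 mesonephros-derived arrays were the lowest.

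Of the secreted, anchored and enzymatic proteins, Egfl7 and Vwf were tested. Egfl7, a matrix protein secreted by endothelium, read 344, 1207 and 457 in mesonephros-derived cells, against 904, 1031 and 981 in ovary-derived cells (−0.74 ± 0.43 SE), and its 3 other probe sets stood at −1.21, −0.94 and −0.23. Leaving out 1 array at a time gave −1.26 to −0.38 for Egfl7. Vwf, the clotting factor stored in endothelium, stood at −0.35 ± 0.43 and overlapped. Nos3, the endothelial nitric oxide synthase, and Gpihbp1, which anchors lipoprotein lipase in capillaries, lay under the floor on average and were not tested.

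A promoter window, 250 bases before to 50 after the annotated start, was held in the RefSeq table (GRCm38.p6) for 20 of the 43 genes. Those of Kdr and Robo4 are shown because both were among the 6 with an unadjusted p under 0.05. That of Nrp1 is shown because its log2 change was small, at −0.22, though its groups did not overlap. Capitals mark matches to CAGGAA or CCGGAA, letters that ETS factors such as Fli1 and Erg recognise, searched on both strands. The windows lie at chr5:75978406-75978705 (minus strand) for Kdr, chr9:37401722-37402021 (plus strand) for Robo4 and chr8:128358823-128359122 (plus strand) for Nrp1.
Kdr: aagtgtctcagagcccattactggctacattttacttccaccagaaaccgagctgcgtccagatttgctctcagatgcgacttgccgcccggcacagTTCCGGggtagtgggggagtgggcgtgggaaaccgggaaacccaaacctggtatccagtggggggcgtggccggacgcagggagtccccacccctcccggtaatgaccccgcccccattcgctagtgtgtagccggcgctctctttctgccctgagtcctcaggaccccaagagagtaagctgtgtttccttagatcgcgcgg
Robo4: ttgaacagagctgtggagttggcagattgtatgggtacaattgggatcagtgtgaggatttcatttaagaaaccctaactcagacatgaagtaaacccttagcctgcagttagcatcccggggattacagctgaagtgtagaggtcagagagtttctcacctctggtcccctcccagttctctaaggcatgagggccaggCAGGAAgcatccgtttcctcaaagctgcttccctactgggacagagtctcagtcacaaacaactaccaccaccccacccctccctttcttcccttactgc
Nrp1: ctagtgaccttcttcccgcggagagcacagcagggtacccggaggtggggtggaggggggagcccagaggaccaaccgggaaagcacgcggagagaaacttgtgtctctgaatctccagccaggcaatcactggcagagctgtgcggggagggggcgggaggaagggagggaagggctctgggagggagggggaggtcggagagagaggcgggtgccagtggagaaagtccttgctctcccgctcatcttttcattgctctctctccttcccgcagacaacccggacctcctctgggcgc
The Kdr window held 1 match, TTCCGG, which is CCGGAA on the opposite strand, starting at position −153 from the start. The Robo4 window held 1 match, CAGGAA, at position −50, and the Nrp1 window held 0. Nrp1 does not stand for all genes with small changes. Cd34, Emcn, Vegfc and Calcrl had log2 changes nearer 0 and each had a window with a match. Over the 26 windows of the 20 genes, 15 (57.7%) held either motif, where 41.4% of the 32851 windows in the table did. CAGGAA alone was more frequent in the 26 windows than in all, at 53.8% against 30.6%. CCGGAA, the motif matched in Kdr, was rarer in the 26 windows than in all, at 3.85% against 14.9%. ACAAT, which SOX factors recognise, was in 26.9% of these windows and 31.0% of all, AGATAA, which GATA factors recognise, in 15.4% and 11.2%, and TATAAA in 7.69% and 13.6%. These matches describe letters in the windows. The windows of Kdr, Robo4 and Nrp1 were picked by the change in signal, so their matches cannot tell whether the motifs go with lower signal. Over the 26 windows, the matches were not set against the changes in signal.

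Inside each group, most of the genes shared the array on which they were highest, and in ovary-derived cells the one on which they were lowest. Of the 37 tested, 32 were lowest of the ovary-derived arrays on ovary-derived replicate 3 (86.5%), where 36.7% of all genes tested were. Ovary-derived replicate 1 was highest of its group for 28 of the 37 (75.7%), against 36.3% of all genes. Among mesonephros-derived arrays, replicate 2 was highest for 26 (70.3%), against 34.3% of all genes. Replicates 1 and 3 were lowest of that group for 18 (48.6%) and 16 (43.2%), against 39.4% and 26.7% of all genes. All 11 tested junction and surface markers, all 4 VEGF receptors and all 7 transcription factors were lowest of the ovary-derived arrays on replicate 3. All 7 transcription factors were highest of the mesonephros-derived arrays on replicate 2. The mean over the 37 stood at −1.05, 0.10 and −0.80 log2 units from the ovary-derived mean on mesonephros-derived arrays 1, 2 and 3, and at 0.32, 0.14 and −0.46 on the ovary-derived arrays. All genes tested stood at −0.16, −0.06 and −0.03 on the mesonephros-derived arrays and within 0.01 of 0 on the ovary-derived ones. Mesonephros-derived replicate 2 thus lay inside the ovary-derived range, while replicates 1 and 3 lay below it.

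**Figure D3:**
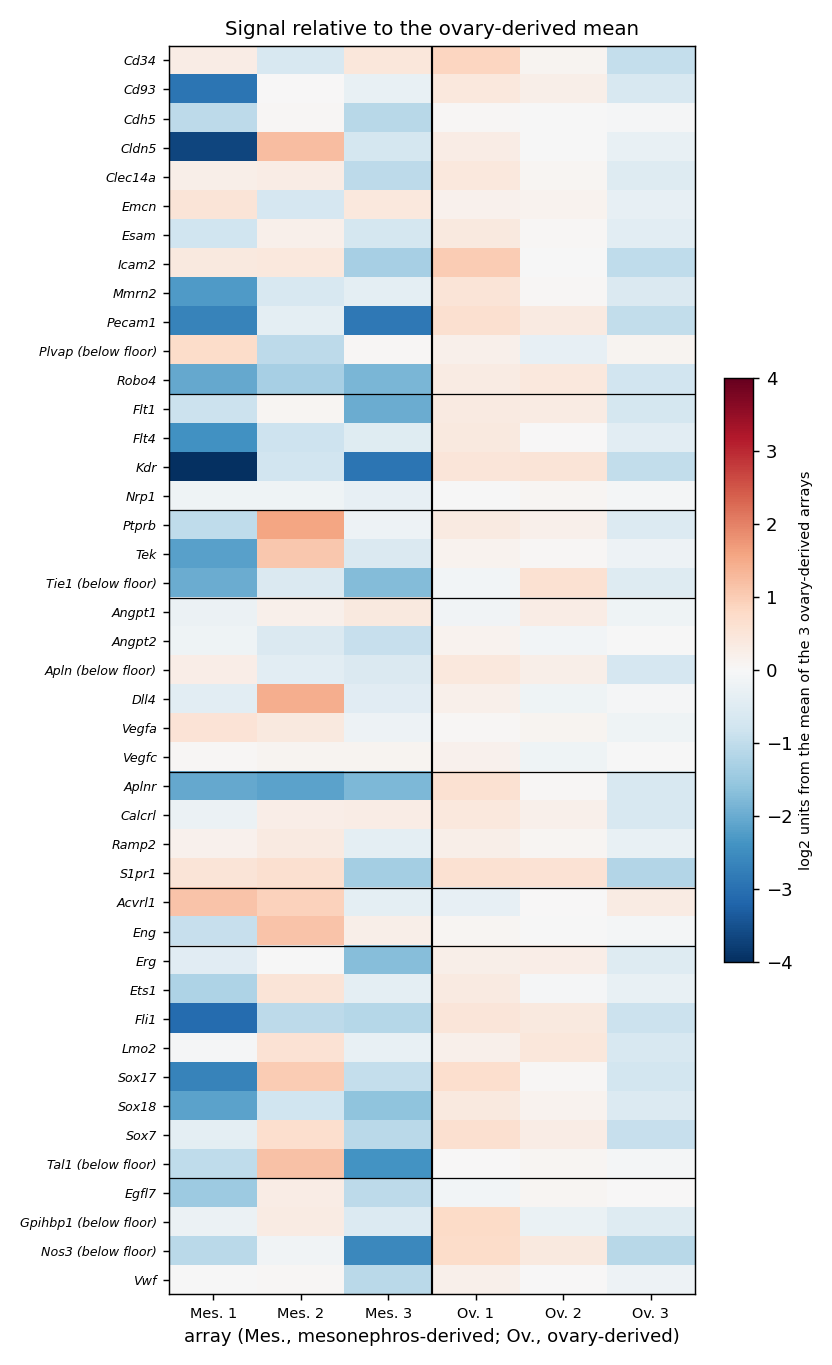
Signal of each of the 43 genes (rows, grouped by role) on each array (columns), as log2 units from the mean of the 3 ovary-derived arrays, with blue lower and red higher. The columns of mesonephros-derived arrays 1 and 3 are mostly blue and that of replicate 2 is mixed. In several rows, among them Aplnr, Robo4, Sox18 and Fli1, all 3 mesonephros-derived arrays are blue.

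**Figure D4:**
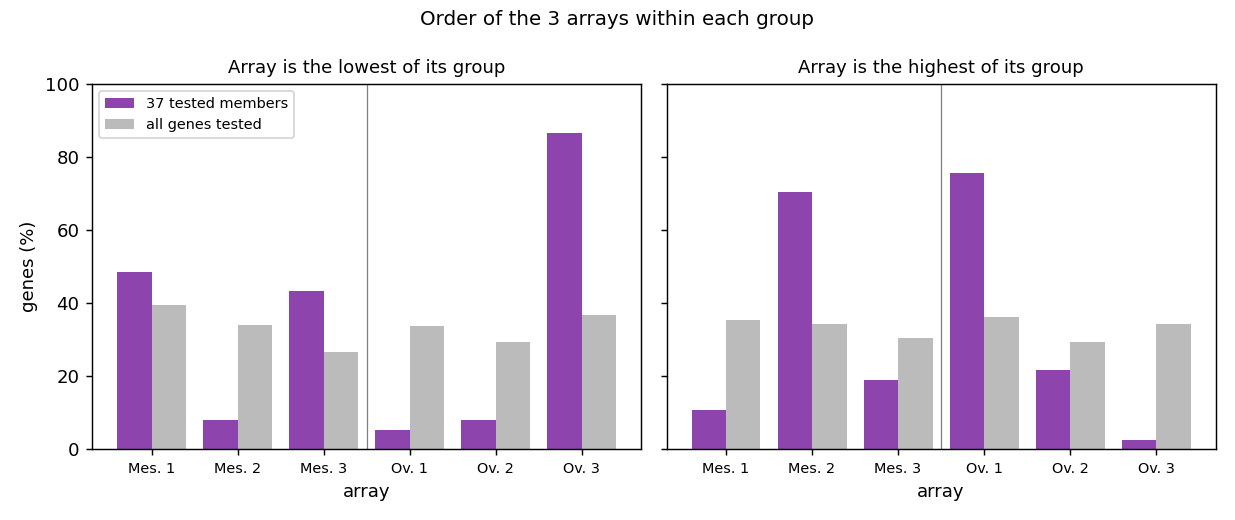
Share of genes (%) for which an array was the lowest (left) or the highest (right) of the 3 arrays of its group, for the 37 tested genes in purple and all genes tested in grey. Ovary-derived replicate 3 was lowest for 86.5% of the 37 genes against 36.7% of all genes.

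The spread of single genes was wider than in the whole table. The median SD between mesonephros-derived arrays was 0.87 log2 units for the 37 genes against 0.48 for all genes, and between ovary-derived arrays it was 0.44 against 0.21. In sorted bulk samples, fewer endothelial cells and less RNA per endothelial cell cannot be told apart, nor can transcripts of labelled cells be told apart from those of unlabelled endothelial cells in the sort.

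On every array some of the defining endothelial markers were above the floor and others below it. Of 15 (the 12 surface markers with Tek, Tie1 and Kdr), 8, 3 and 6 lay below the floor on mesonephros-derived arrays 1, 2 and 3, against 1, 1 and 3 on the ovary-derived arrays. Their summed signal was 7802 to 12107 in mesonephros-derived cells and 8537 to 16384 in ovary-derived cells, so the groups overlapped. Their mean log2 level stood at −1.49, −0.18 and −0.97 from the ovary-derived mean on the mesonephros-derived arrays, against 0.39, 0.15 and −0.54 on the ovary-derived arrays, so mesonephros-derived replicates 1 and 3 lay below every ovary-derived array and replicate 2 did not. Theca and stromal markers were measured on all arrays, and all 9 listed were above the floor throughout, with summed signals of 92212 to 125984 in mesonephros-derived cells and 63119.8 to 72809.9 in ovary-derived cells. Col1a2 was the highest of the 9 on every array, so it weighs most in these sums. Of the 9, 2 lay below 0, where 56.5% of all genes tested did. They were Gli1 at −0.81 ± 0.50 and Pdgfra at −0.02 ± 0.17 (SE).

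Leukocyte and macrophage markers were listed because blood cells share Fli1, Lmo2 and Tal1 with endothelium, and they too varied between the arrays. All 9 tested of 11 listed lay below 0, where 56.5% of all genes tested did, with a median log2 change of −0.65. At an unadjusted p of 0.05 in limma 2 of the 9 were lower, where 7.22% of all genes were. Their summed signal ranged from 858 to 10849 in mesonephros-derived cells, on replicates 1 and 2, and from 5558 to 8367 in ovary-derived cells. Csf1r, the macrophage growth factor receptor, read 2.81, 615 and 461 in mesonephros-derived cells, against 1300.2, 1583 and 1060 in ovary-derived cells. In log2 units from the ovary-derived mean, the leukocyte and macrophage markers stood at −2.54, 0.62 and −0.81 on mesonephros-derived arrays 1, 2 and 3. This was the same order of arrays as for the endothelial markers. Among the ovary-derived arrays both lists were lowest on replicate 3, at −0.29 and −0.54. The leukocyte and macrophage markers were highest on replicate 2, at 0.33 against −0.04 on replicate 1, and the endothelial markers on replicate 1, at 0.39. Of 4 platelet markers on the array, Pf4, also made by macrophages, was tested. Pf4 read 64.3, 171 and 145 in mesonephros-derived cells, against 638, 800.2 and 346 in ovary-derived cells (−2.11 ± 0.47 SE, limma adjusted p = 0.191). Itga2b, not tested, read 265, 97.0 and 54.4 in mesonephros-derived cells, against 84.3, 46.4 and 46.6 in ovary-derived cells. Gp9 and Ppbp were below the floor on all 6 arrays. Smooth muscle and pericyte markers averaged 0.78, 1.09 and 0.93 log2 units over the ovary-derived level on the 3 mesonephros-derived arrays. Of these 10 markers 6 were higher at an unadjusted p of 0.05 in limma, where 6.46% of all genes tested were. Of 5 lymphatic endothelial markers on the array, Prox1 and Mmrn1 were below the floor on all 6 arrays, while Pdpn read 930 to 2790. Flt4 is given above. Lyve1 read 27.1, 336 and 236 in mesonephros-derived cells, against 91.3, 164 and 114 in ovary-derived cells (0.20 ± 0.75 SE). Fshr of the granulosa markers was also below it on all 6, while Foxl2 read 3434 to 5330 and Inha 529 to 1352. Amh, another granulosa marker, was not tested. It read 511, 234 and 33.4 in mesonephros-derived cells, against 20.7, 28.1 and 34.7 in ovary-derived cells. Of the erythroid markers, Slc4a1 was below the floor on all 6 arrays, while Alas2 read 16.7 to 284. Hba-a1, not tested, read 109, 74.8 and 34.1 in mesonephros-derived cells, against 12.1, 19.4 and 12.3 in ovary-derived cells. The part of these cell types in the differences was not tested.

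**Figure D5:**
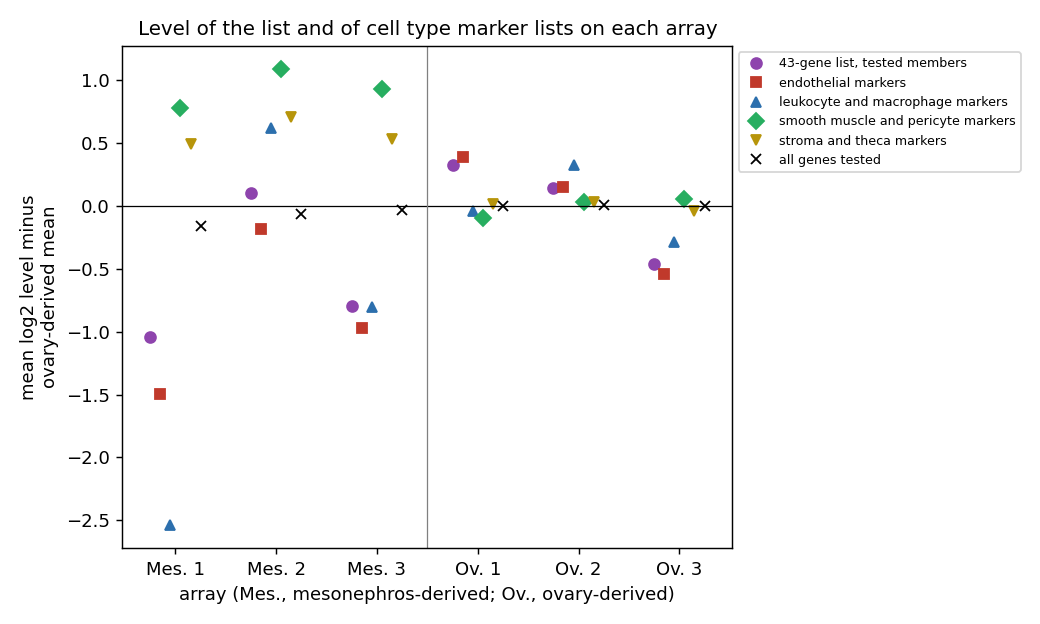
Mean log2 level of the 37 tested genes, of 4 cell type marker lists and of all genes tested on each array (x axis), relative to the mean of the 3 ovary-derived arrays. Leukocyte and macrophage markers spread from −2.54 to 0.62 over the mesonephros-derived arrays, and smooth muscle and pericyte markers stand 0.78 to 1.09 above 0 on all 3.

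Other genes of vessel signalling, a list of 59 chosen by role, were read in the same fit. Of these 55 were on the array and 51 tested, 30 below 0 and 21 above, with a median log2 change of −0.09 against −0.08 over all genes. At an adjusted p of 0.05 in limma 0 passed. At an unadjusted p of 0.05, 1 was lower (1.96% of the 51) and 1 higher, where 7.22% and 6.46% of all genes tested were. Ednrb, an endothelin receptor of endothelium and mural cells, read 2340.4, 1788 and 1481 in mesonephros-derived cells, against 669, 824 and 605 in ovary-derived cells. The groups did not overlap (1.38 ± 0.25 SE, limma adjusted p = 0.126), and Ednrb passed with arrays weighted by noise. Cxcl12, a chemokine of perivascular stroma, read 1639, 1422 and 2179 in mesonephros-derived cells, against 3201, 3123 and 2374 in ovary-derived cells, again without overlap (−0.74 ± 0.23 SE, limma adjusted p = 0.270). The next in order of p on the lower side were the Notch pathway genes Jag1 at −0.41 ± 0.22 and Notch1 at −1.05 ± 0.56, and Edn1, an endothelin, at −1.02 ± 0.58. On the higher side they were Vegfd, a ligand of Flt4, at 0.80 ± 0.37, the growth factor Hgf at 0.98 ± 0.57, and Adm, the adrenomedullin gene, at 0.64 ± 0.45. Adm read 17192, 5388 and 4111 in mesonephros-derived cells, against 4341, 4574 and 5022 in ovary-derived cells, and its log2 change was 0.02 without mesonephros-derived replicate 1. Without that array Notch1 was −0.32 and Edn1 −0.40. Vegfd was 0.42 without mesonephros-derived replicate 2, and Hgf was 1.67 without replicate 1. Of these 8 genes, Ednrb, Cxcl12 and Jag1 moved by less than 1.5 times when any 1 array was left out.

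Probe sets of one gene were compared as a check. Of the 82 probe sets, 67 passed the floor, and 50 of these stood below 0 and 17 above, where 60% of all 22475 probe sets past the floor stood below 0. For 11 of the 67 the arrays did not overlap with lower signal in mesonephros-derived cells, where 13.6% of all probe sets past the floor did so, and for 0 with higher signal, where 8.2% did. Of 19 genes with several probe sets past the floor, 7 had one on the other side of 0 from the one reported, namely Acvrl1, Eng, Mmrn2, Nrp1, Ptprb, Vegfa and Vegfc. Aplnr had 2 probe sets and both were lower without overlap, while Sox18, Robo4, Kdr and Pecam1 had 1 probe set each.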

How the data were processed

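RNA of 6 samples of sorted cells was measured on 1-colour arrays. Equal volumes of RNA, not equal amounts, were amplified, per the labels' protocols. The deposited values are linear signal intensities, 1 per probe set, and per the submitters' processing notes they come from MAS5 (version and settings not given in the sources). No further normalization was applied. Of 45101 probe sets, 64 controls were left out, and 34945 had 1 gene symbol in the platform annotation, 932 several and 9160 none here.

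Each of 18193 genes was represented by its brightest probe set on log2(signal + 16), and those under the 40th percentile were not tested. The comparison used limma 3.58.1 under R 4.3.3 (lmFit, eBayes with an intensity trend), adjusted by Benjamini-Hochberg over 11703 genes and tested on simulated data. A fold is a bound against the floor where a group's 3 arrays are all under it. The number of arrays, 3 per group, limits precision. Whether the samples are separate animals is not in the labels, so the p-values rest on sample spread that may be technical only. The genes and lists were chosen with earlier results of these data known. Genes given array by array were those at an unadjusted p under 0.05, a fixed set, and the brightest gene of each role, with others added after their values were seen. The alternatives were other pseudocounts, floors, scalings, probe set choices and fits, and leaving out each array.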

Additional observations from a re-analysis of the deposited data

How the results depend on the processing

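Over 20 alternatives, 359 of 377 values of the 19 named tested genes kept their direction and their side of an adjusted p of 0.05 in limma. Much of this count was fixed in advance. The log2 change could not move where only the floor, the eBayes settings or the replicate block differed, or where all probe sets were kept. None of the 19 passed in the main setting, so keeping their side meant not passing. The size of the change did not enter the count. Aplnr, Sox18, Robo4, Kdr, Fli1 and Pecam1 kept a log2 change below 0 in each alternative that tested them, though Fli1, −1.75 in the main setting, was −0.26 with the spike covariate. Of the 37 tested genes, 31 moved by over 1.5 times or changed sign when some 1 array was left out, and 18 changed sign. With arrays weighted by noise, 3 of the 43 genes and 1 of the 59 other vascular genes passed an adjusted p of 0.05, and in the other 19 alternatives 0 did. The number lower at an unadjusted p of 0.05, 6 in the main setting, was 3 with the floor at the 60th percentile (7.13% of all genes were lower in that fit), 10 over all probe sets (7.82%), 11 with array weights (7.94%), 0 with the spike signal in the model (1.13%) and 4 to 15 without 1 array (2.4% to 11.5%). The number higher was 0 to 1 without 1 array, and the median log2 change of the list was −0.74 to −0.23. The mean level of the list, −0.58, ranged from −0.94 to −0.35 without 1 array. The cause of these shifts was not tested.

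For the other vascular genes, the numbers lower and higher at an unadjusted p of 0.05 were 1 and 1 in the main setting. With averaged probe sets they were 4 and 2 of 50, where 1005 and 534 of all 10931 genes were. Over all probe sets they were 7 and 4 of 99, against 1758 and 1189 of 22475. With array weights they were 6 and 4 of 51, against 929 and 752 of 11703 genes. With the spike covariate they were 3 and 0 of 51, against 132 and 174 of 11703. There were 2 lower with no floor, where 6.21% of all genes were. With quantile normalization or median centring 2 were higher, where 708 and 732 of all 11703 genes were. Without 1 array the numbers lower and higher were 1 to 8 and 1 to 4. In those fits 2.4% to 11.5% of all genes were lower, and 357 to 1084 genes were higher. Their median turned to 0.054 with the spike covariate and ranged from −0.22 to 0.10 without 1 array. Vegfa turned to −0.20, Eng to −0.14 and Ptprb to −0.25 with the mean of their probe sets, Vegfa to −0.016 and Ptprb to −0.009 with array weights, and Vegfa to −0.28 with the spike covariate. Without 1 array, Tek ranged from −1.38 to 0.26, Cd34 from −0.45 to 0.47, Ets1 from −0.82 to 0.066, Eng from −0.34 to 0.70, Ptprb from −0.60 to 0.69 and Angpt1 from −0.03 to 0.29.

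With the replicate number as a block, 7 members were lower at an unadjusted p of 0.05 (6.48% of all genes were) and 0 passed the adjusted threshold. Of the other vascular genes 3 were lower and 2 higher in that fit, where 758 and 622 of all 11703 genes were. Deviations of arrays with the same number correlated at 0.00, 0.07 and −0.01. With 3 arrays per group such values cannot exclude a pairing, so whether the numbers pair the samples is not known.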
